A study of Daphnia pulicaria with 8 samples.

Results

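The cytosolic ribosomal proteins of adult Daphnia pulicaria, a freshwater water flea, were taken as all genes whose deposited name held "40S ribosomal protein" or "60S ribosomal protein", leaving out names with ribosomal protein S9, mitochondrial, biogenesis or export. This rule gave 87 of the 33069 genes in the table, 37 of the small (40S) subunit and 50 of the large (60S) subunit. Animals came from 4 lakes, named Black, Doe, Long and Round, and were of a Pale or a Red phenotype. Each lake gave 1 Pale and 1 Red library, so there were 8 libraries, and lakes were the replicates (n = 4 per phenotype). No genotype, treatment or exact age was given in the labels. Each library was made from whole adults, and the labels give 30 animals for each lake without saying how many were of each phenotype.

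The cytosolic ribosome reads messenger RNA on its small subunit and joins amino acids on its large subunit. Its proteins are built into the subunits in fixed numbers, so their transcripts tend to be abundant and to stand in stable proportions to each other in animal cells. Most of the proteins are made from housekeeping genes, and some of the genes occur in more than 1 copy. In Daphnia a red colour is known to come from haemoglobin, which is made at low oxygen.

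Values are FPKM (sequenced fragments per kilobase of a transcript, set against the mapped total of its library), which can be set against each other between genes because they are per length. A gene was tested when its mean was at least 1 FPKM over the 8 libraries. Of the 87 ribosomal protein genes, 79 were tested, 32 of the small and 47 of the large subunit, among 12865 genes in all. Of the 8 that were not tested, 5 were of the small and 3 of the large subunit. Both L34 models Daplx7pEVm022200 and Daplx7pEVm010952 were listed at 0 in every library, and the other 6 averaged between 0.03 and 0.34 FPKM. The names covered 69 distinct numbered proteins, 29 small and 40 large, and 15 of these had several gene models. A pair of genes had no protein number in the name. Of the 4 isoforms of Daplx7pEVm018942, 3 were named S13, and 2 of the 3 isoforms of Daplx7pEVm023660 were named L31.

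Transcript totals, the phenotype label and tissue markers were read before the results. Read depth was not given with the FPKM. The smallest steps between low values put Black Red at 1.85 times the depth of Black Pale and the other libraries at 0.90 to 1.13 times. An uncharacterized gene, Daplx7pEVm025448, took 40.99% to 48.12% of all FPKM in a library. Globin genes, the oxygen carriers, were higher on average in Red for 23 of 28 tested, and their summed FPKM was higher in Red in 4 of 4 lakes. Over all genes tested, 61.5% were lower on average in Red. Muscle genes were lower on average in Red for 19 of 22 tested (summed FPKM 1540 to 2944 in Pale and 1302 to 1973 in Red, 2 of 28 listed at 0 throughout). In Doe the muscle sum was higher in Red (1540 in Pale, 1973 in Red). Digestive enzymes, matched by name, were lower on average for 60 of 82 (4072 to 8780 in Pale, 4163 to 6415 in Red, 4 of 115 at 0). By name this list also held a glutamate carboxypeptidase. In Long its sum was higher in Red (4072 in Pale, 5095 in Red). Vitellogenin (yolk) genes were lower on average for 7 of 9, though their sum was higher in Red in 3 of 4 lakes. Opsin (eye) genes were higher on average for 16 of 29. Germ line genes were higher on average for 15 of 17 (102 to 139 in Pale, 114 to 147 in Red, 10 of 50 at 0), and genes of dividing cells for 13 of 16 (224 to 363 in Pale, 278 to 379 in Red, none of 19 at 0). None of these marker genes passed the adjusted threshold. The part of tissue make-up in the ribosomal protein values was not tested. In whole animals, fewer cells of a type and less RNA per cell cannot be told apart.

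The ribosomal protein transcripts were abundant and nearly uniform. Among the tested genes, the mean level ran from 1.24 to 519 FPKM with a median of 220, and 73 of the 79 stood at 40 FPKM or more. Ribosomal proteins made up 5 of the 50 genes with the highest mean FPKM, 25 of the top 100, 56 of the top 200 and 71 of the top 500. The order of the genes hardly differed between libraries: Spearman's rho over the 79 genes was 0.949 to 0.987 for pairs of libraries, as a description over genes that share a library. Over the 12865 tested genes it was 0.770 to 0.888. The SD of log2(FPKM + 1) over the 8 libraries had a median of 0.15 for ribosomal proteins at 40 FPKM or more and of 0.43 for all 843 genes at that level.

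In the small subunit the most abundant transcript was S8, a core protein, with 505 FPKM on average. S16, whose tail reaches the decoding site, followed with 474 FPKM. S20 had 450, S4 had 421 and S5 had 353 FPKM. The lowest tested small subunit genes were a model of S14 (Daplx7pEVm061135, 48.8 FPKM), the zinc-binding S29 (49.6 FPKM) and another model of S14 (Daplx7pEVm017985, 95.1 FPKM). In S8 the 4 Pale libraries ran from 465 to 598 FPKM and the 4 Red libraries from 433 to 524 FPKM, so the groups overlapped. Neighbours in this order were mostly closer than the range over libraries of either gene, and the order within the list is a description.

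In the large subunit L13 was highest with 519 FPKM, and L19, which reaches across to the small subunit, had 508 FPKM. L15 had 458 FPKM, L4, which lines the tunnel of the growing protein, had 397 FPKM, and L23 had 392 FPKM. The lowest tested genes were extra models of L17 (Daplx7pEVm026865, 1.24 FPKM), L7 (Daplx7pEVm017248, 3.44 FPKM) and L18 (Daplx7pEVm063737, 6.88 FPKM). The main models of L17, L7 and L18 had 295, 311 and 305 FPKM. All 6 tested genes under 10 FPKM were large subunit models whose protein also had a model above 100 FPKM.

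**Figure D1:**
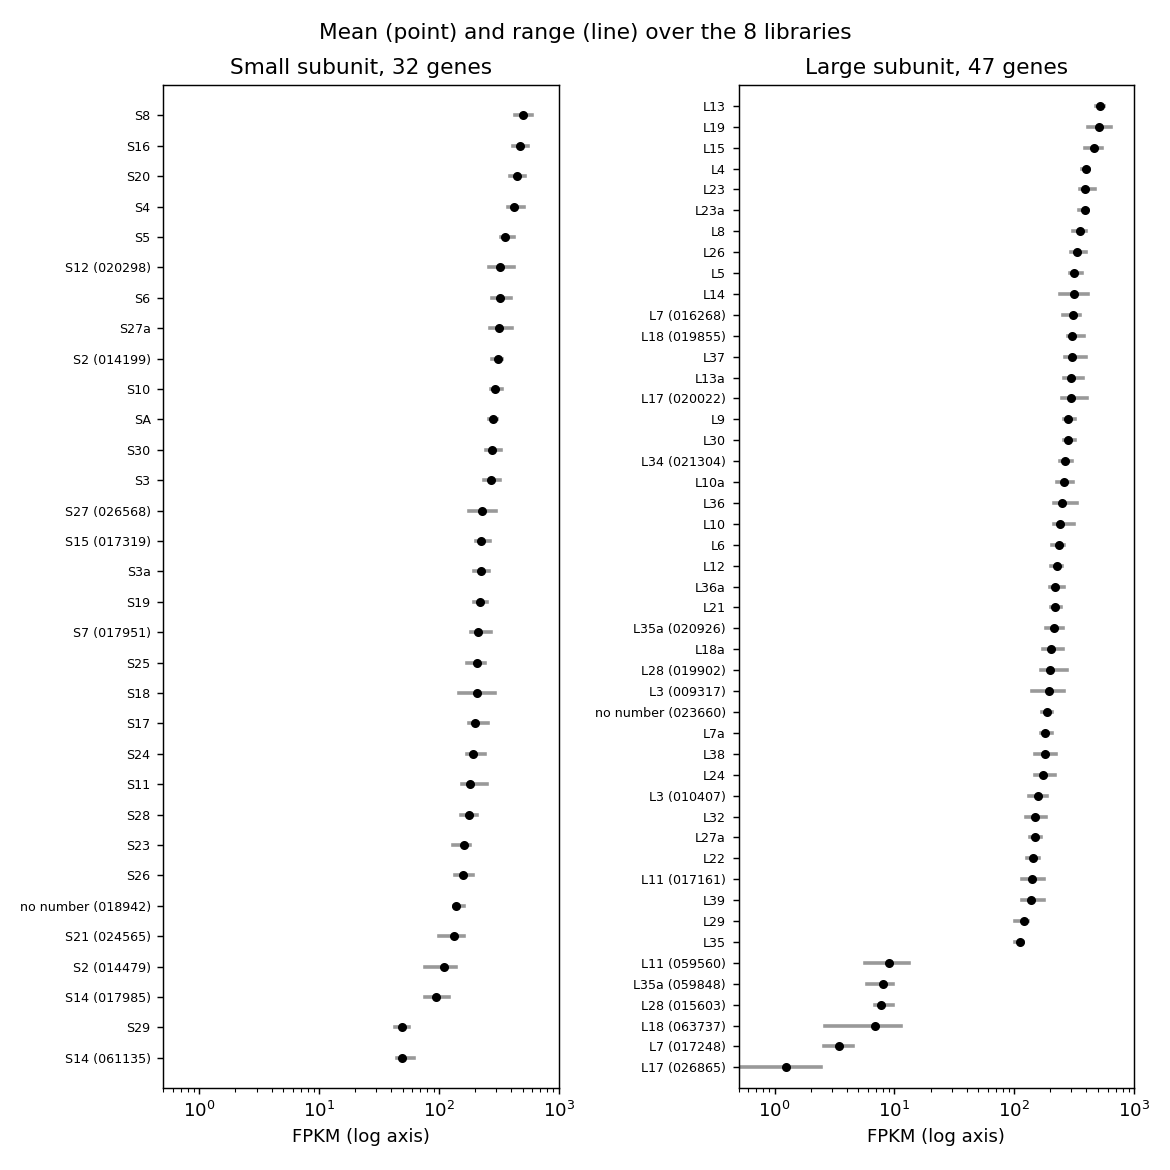
Mean FPKM (points) and range over the 8 libraries (lines) of the 79 tested ribosomal protein genes, on a log axis, by subunit; digits in brackets are the last 6 of the gene identifier, shown where a protein has several models or no number. Of the 79 genes, 73 lie at 40 FPKM or more and 6 large subunit models lie under 10 FPKM; the line of the L17 model at the bottom runs to 0, which a log axis cannot show.

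The summed level of each subunit was compared by lake and phenotype. Small subunit transcripts summed in Black, Doe, Long and Round lake to 7606, 7201, 8232 and 9273 FPKM in Pale and to 7047, 7370, 7614 and 7743 FPKM in Red. Red was lower in Black, Long and Round and higher in Doe, and Round Pale was the highest of the 8 libraries. The means were 8078 ± 903 FPKM for Pale and 7444 ± 306 FPKM for Red (SD over 4 lakes), and the ranges overlapped. Divided by Pale, Red gave 0.926 (Black), 1.02 (Doe), 0.925 (Long) and 0.835 (Round), with a geometric mean of 0.925.

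Large subunit transcripts summed to 10509, 9936, 11090 and 12515 FPKM in Pale and to 9717, 10256, 10503 and 10650 FPKM in Red, in the same order of lakes. As deposited, Red was again lower in Black, Long and Round and higher in Doe. The means were 11013 ± 1107 FPKM for Pale and 10282 ± 410 FPKM for Red (SD over 4 lakes), and the ratios of Red to Pale were 0.925, 1.03, 0.947 and 0.851, with a geometric mean of 0.937. Without the Round pair the geometric means were 0.957 for the small and 0.967 for the large subunit.

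**Figure D2:**
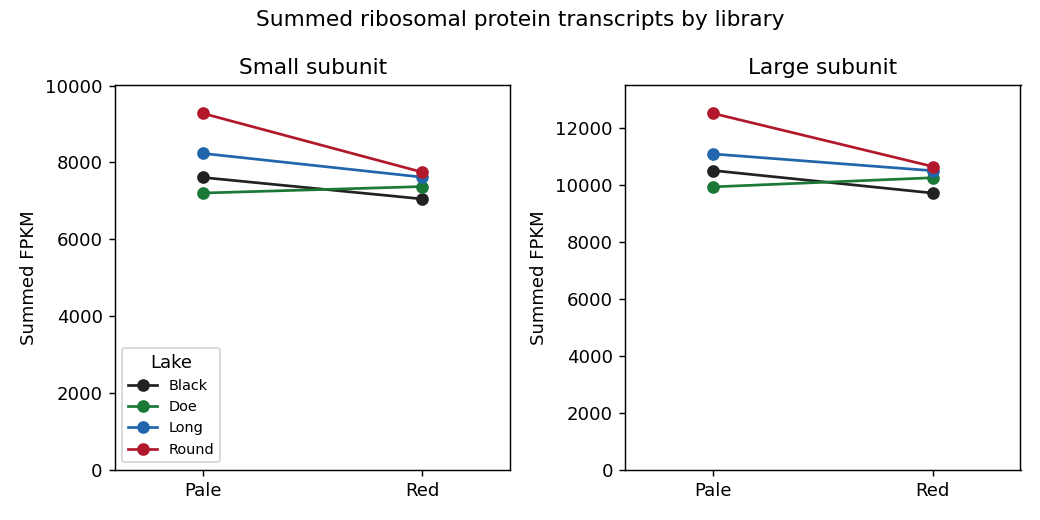
Summed FPKM of the small and large subunit genes in each library, with a line joining the Pale and Red library of a lake. Round Pale is the highest library in both panels (9273 and 12515 FPKM), and Doe is the lake in which Red lies above Pale.

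The 2 subunits moved together between libraries. The ratio of the large to the small subunit sum came to 1.36 ± 0.02 for Pale and 1.38 ± 0.01 for Red (SD over 4 lakes), and no library left the range of 1.35 to 1.39. Together the subunits held 3.38% ± 0.29 of all FPKM in Pale and 3.22% ± 0.11 in Red. When Daplx7pEVm025448 was left out of the total, the shares were 6.03% ± 0.41 in Pale and 6.05% ± 0.18 in Red. In that reckoning Black Pale was lowest with 5.53% and Long Pale was highest with 6.39%, and Red was higher than Pale in Black as well as in Doe. The small subunit then held 2.32% in Black Pale and 2.43% in Black Red, and the large subunit 3.21% and 3.35%. That gene itself took 43.9% ± 2.8 of all FPKM in Pale and 46.7% ± 1.2 in Red.

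Red was then compared with Pale for each gene within lakes. No ribosomal protein gene passed an adjusted p of 0.05 in limma (0 of 79), and none of all genes tested did (0%). The smallest adjusted p among ribosomal proteins was 0.286. At an unadjusted p under 0.05, 2 ribosomal protein genes were lower in Red against a background of 9.29% of all genes, and 2 were higher against 2.89%. The log2 difference was below 0 for 60 of the 79 (75.9%), beside 61.5% of all genes as deposited. It was below 0 for 41, 42 and 39 with size factors, quantile normalization and the total rescaled without Daplx7pEVm025448. The median over all genes then moved from -0.08 to -0.01, 0.02 and 0.0018, so the 61.5% is no background for those counts. The median was -0.12 in the small subunit and -0.09 in the large subunit, beside -0.08 over all genes. Under those scalings the small subunit median was -0.02, -0.0037 and -0.0092 and the large subunit median was 0.0070, -0.0060 and 0.02, so the large subunit direction depended on scaling. Without the Round pair the medians were -0.07 and -0.04. Taken lake by lake (Black, Doe, Long, Round), the median over ribosomal proteins was -0.10, 0.02, -0.13 and -0.23, beside -0.19, -0.02, -0.07 and -0.03 for all genes. Under the 3 scalings Black turned to 0.12, 0.09 and 0.07, and Round was -0.21, 0 and -0.05.

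Lower values in Red in 4 of 4 lakes were found for 18 ribosomal protein genes, 8 small and 10 large, which is 22.8% of those tested, beside 14.6% of all genes. With size factors, quantile normalization and rescaling this number was 9, 14 and 9. Higher values in 4 of 4 lakes were found for 3 genes, all of the large subunit, which is 3.80% beside 6.57% of all genes, and for 11, 14 and 14 under those scalings. The shares of all genes are as deposited and are no background for the scaled counts. As deposited, every Red library lay below every Pale library for 5 genes (4.45% of all genes did so) and above for 3 genes (1.62%). These counts and the overlap of FPKM in named genes below refer to values as deposited and were not repeated under the other scalings. The 5 were S12, S27, L3 model Daplx7pEVm010407, L24 and L19, and the 3 were L11 model Daplx7pEVm059560, L3 model Daplx7pEVm009317 and L29.

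**Figure D3:**
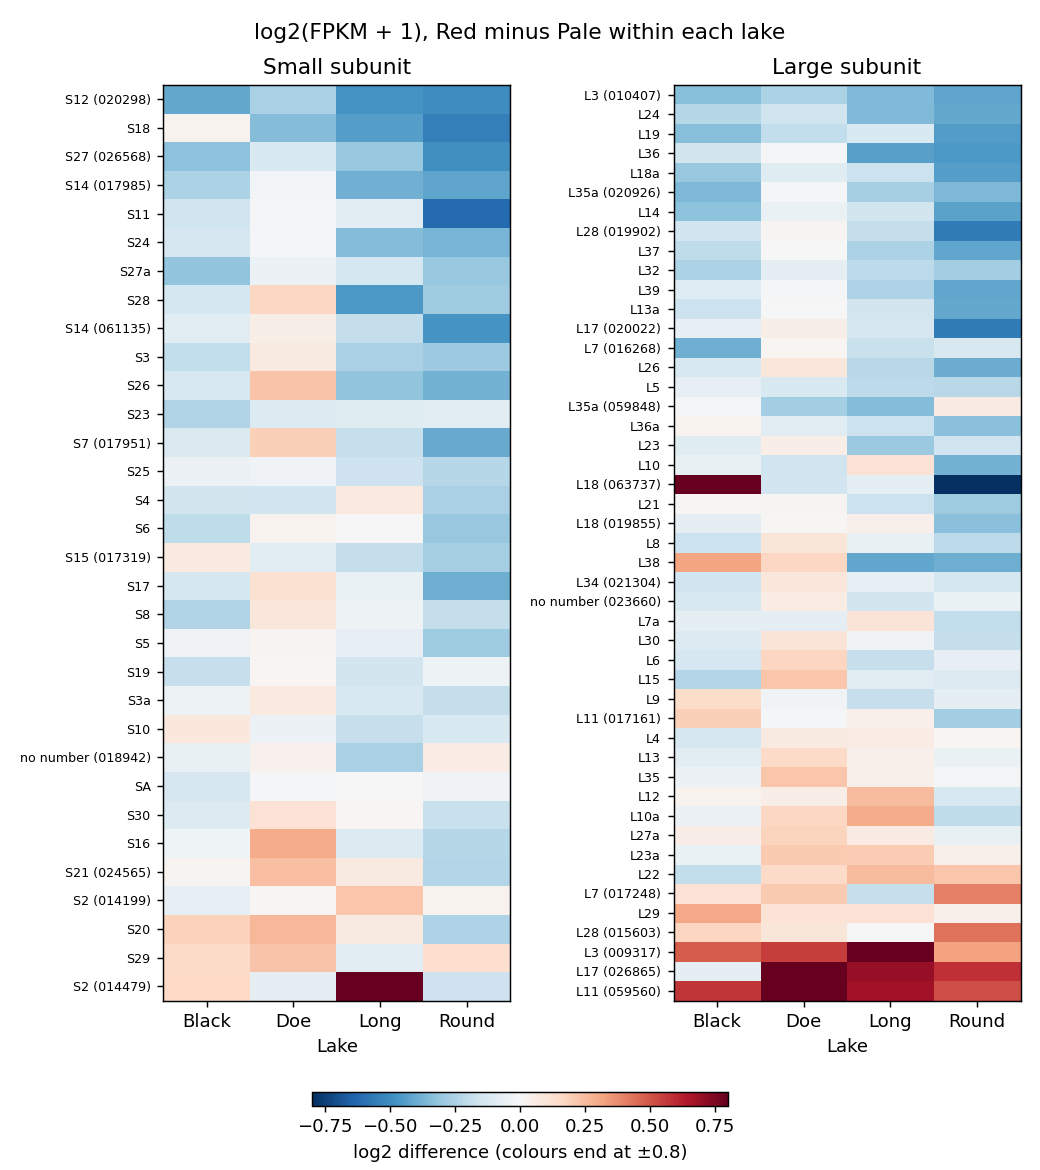
Difference in log2(FPKM + 1), Red minus Pale, within each lake for the 79 tested ribosomal protein genes, ordered by the mean difference in each subunit; blue is lower in Red, red is higher, and colours end at ±0.8. The Round column is mostly blue (median -0.23), the Doe column is pale (median 0.02), and L3 models stand at the top and near the bottom of the large subunit.

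L3, which sits beside the site where peptide bonds are formed, had a pair of abundant gene models with opposite differences. Model Daplx7pEVm009317 had 144, 176, 141 and 177 FPKM in Pale of Black, Doe, Long and Round and 202, 259, 249 and 222 FPKM in Red. Every Red library was above every Pale library, the log2 difference was 0.55 ± 0.14 (SE), and the limma adjusted p was 0.294. Model Daplx7pEVm010407 had 186, 160, 183 and 179 FPKM in Pale and 147, 134, 143 and 133 FPKM in Red. Every Red library was below every Pale library, with a log2 difference of -0.34 ± 0.12 (SE) and an adjusted p of 0.367. With quantile normalization this difference was -0.17, and that of Daplx7pEVm009317 was 0.69.

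Daplx7pEVm009317 made up 47.3% ± 4.4 of the L3 FPKM in Pale libraries and 62.5% ± 3.3 in Red libraries (SD over 4 lakes). The share ran from 43.5% to 52.4% in Pale and from 57.9% to 65.9% in Red, with no overlap. That lack of overlap follows from the opposite, non-overlapping values of the 2 models and adds no evidence to them. The ratio of the 2 models in Red was 1.86 times that in Pale as a geometric mean over lakes. A ratio within a library does not change when the library is multiplied by a constant factor, but can change with quantile normalization. The ratio of the L3 models was looked at after the values of both models were seen and was given no test. The L3 sum was 336 ± 14.5 FPKM in Pale and 372 ± 23.5 FPKM in Red. No sequence was at hand to tell how alike the models are. How any reads shared by models of a protein were assigned is not given in the sources used here, so the split between models is uncertain. In the other pairs with both models at 40 FPKM or more, the share of the more abundant model was 66.7% ± 1.5 in Pale and 65.2% ± 2.1 in Red for S14, and 75.0% ± 2.6 and 73.0% ± 3.7 for S2.

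L11, which joins the ribosome with L5 and the 5S ribosomal RNA, also had 2 models. The low one, Daplx7pEVm059560, had 6.86, 5.67, 7.40 and 6.15 FPKM in Pale and 10.7, 13.4, 12.4 and 9.24 FPKM in Red. The groups did not overlap, the log2 difference was 0.72 ± 0.15 (SE), and the adjusted p was 0.286. The main model, Daplx7pEVm017161, had 141 ± 25.1 FPKM in Pale and 138 ± 6.6 FPKM in Red, and overlapped. Summed, L11 came to 148 ± 24.8 FPKM for Pale and 150 ± 6.2 FPKM for Red. L5 itself (Daplx7pEVm017059) was lower in Red in 4 of 4 lakes as deposited, with a log2 difference of -0.15 ± 0.11 (SE) and an adjusted p of 0.624.

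**Figure D4:**
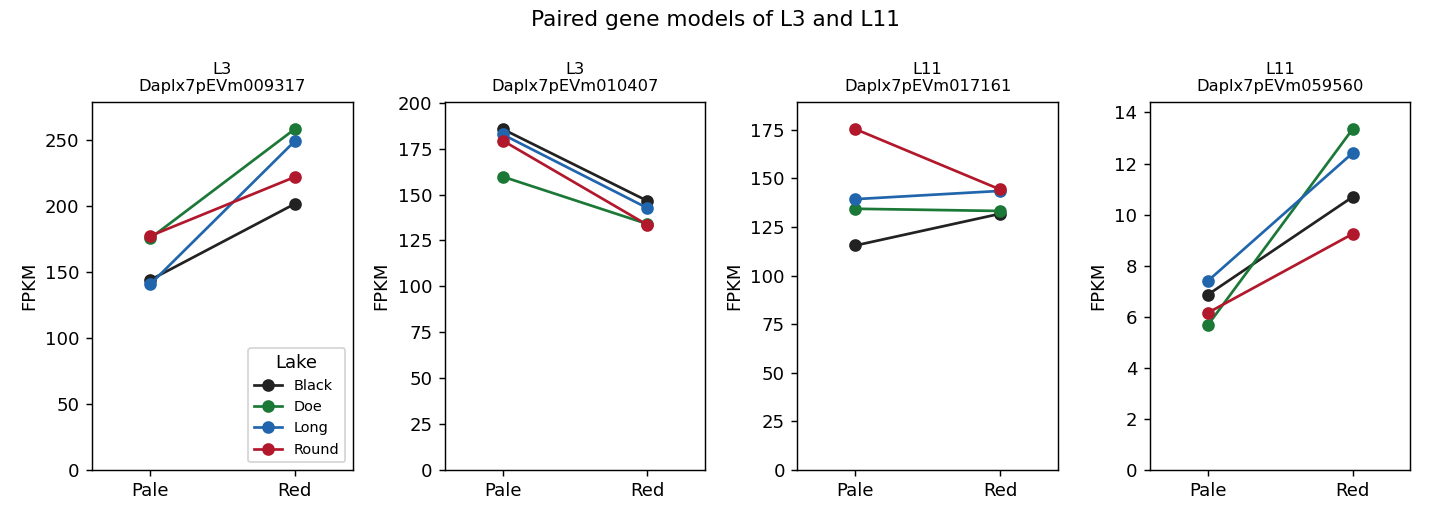
FPKM of the paired gene models of L3 and L11 in each library, with a line joining Pale and Red of a lake; each panel has its own axis from 0. Daplx7pEVm009317 and Daplx7pEVm059560 are higher in all 4 Red libraries than in any Pale library, Daplx7pEVm010407 is lower, and Daplx7pEVm017161 overlaps.

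Among the genes lower in Red in every lake, S12 led. S12, which in Drosophila takes part in the removal of cells that lack a copy of a ribosomal protein gene, had 353, 313, 380 and 421 FPKM in Pale and 265, 262, 272 and 298 FPKM in Red (Daplx7pEVm020298). The groups did not overlap, and the log2 difference was -0.41 ± 0.12 (SE; 95% interval -0.71 to -0.12) with an adjusted p of 0.329. S27, a zinc-binding protein of the small subunit, had 225, 219, 264 and 297 FPKM in Pale and 179, 201, 214 and 210 FPKM in Red (Daplx7pEVm026568). These groups did not overlap either, and the log2 difference was -0.31 ± 0.13 (SE) with an adjusted p of 0.412. When the S27 gene was replaced by its most abundant isoform, the log2 difference was 0.16.

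L24, which forms a bridge between the subunits, had 182, 173, 191 and 218 FPKM in Pale and 155, 154, 149 and 164 FPKM in Red. L19, another bridge protein, had 519, 513, 554 and 638 FPKM in Pale and 411, 448, 509 and 468 FPKM in Red. As deposited, both showed Red below Pale without overlap, with log2 differences of -0.29 ± 0.12 and -0.27 ± 0.12 (SE) and adjusted p of 0.428 and 0.434. L18a, S14 (Daplx7pEVm017985) and L35a (Daplx7pEVm020926) were lower in Red in each lake as deposited, with overlapping groups and log2 differences of -0.25, -0.27 and -0.25. With quantile normalization L24, L18a, S14 and L35a came to -0.14, -0.13, -0.07 and -0.15. L35a is a protein whose gene is mutated in some patients with Diamond-Blackfan anaemia, a human disease of red cell formation. L29, which binds heparin in mammals, had 102, 118, 120 and 122 FPKM in Pale and 125, 127, 130 and 125 FPKM in Red, with a log2 difference of 0.14 ± 0.13 (SE) and an adjusted p of 0.678. Its log2 difference was 0.23, 0.32 and 0.25 with size factors, quantile normalization and rescaling, and 0.09 without the Black pair.

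S27a, S6, SA and L10 have known roles outside the ribosome or in its control or assembly. S27a, made as a fusion with ubiquitin, was lower in Red in 4 of 4 lakes as deposited. It had 337 ± 49.8 FPKM in Pale and 291 ± 27.6 FPKM in Red, with an adjusted p of 0.557. S6, the target of S6 kinase, had 334 ± 43.8 FPKM in Pale and 306 ± 21.9 FPKM in Red. SA, known in mammals also as a laminin receptor, had 289 ± 17.1 FPKM in Pale and 280 ± 19.4 FPKM in Red. L10, which is added late to the large subunit, had 253 ± 42.5 FPKM in Pale and 231 ± 17.1 FPKM in Red. As deposited, S6, SA and L10 were lower in Red in 3 of 4 lakes, and their groups overlapped.

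The stalk proteins, which recruit elongation factors, carry names outside the rule and are given beside the members. P0 (Daplx7pEVm014575), the base of the stalk, had 330, 332, 274 and 331 FPKM in Pale and 382, 340, 368 and 366 FPKM in Red. Red was higher without overlap as deposited, with a log2 difference of 0.20 ± 0.13 (SE) and an adjusted p of 0.566. As deposited, P1 (Daplx7pEVm059769) was lower in Red in 4 of 4 lakes, with 331 ± 62.2 FPKM in Pale and 284 ± 21.5 FPKM in Red. P2 (Daplx7pEVm024489) was lower in 3 of 4 lakes as deposited, with 400 ± 67.4 and 361 ± 20.1 FPKM. A low P1 model (Daplx7pEVm024651) had 8.80 ± 4.2 FPKM in Pale and 8.08 ± 1.7 FPKM in Red. Its log2 difference as deposited was -0.01 ± 0.35 (SE), lower in 3 of 4 lakes and 1.30 in Doe.

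The lakes were compared over both phenotypes. No ribosomal protein gene differed between lakes at an adjusted p of 0.05 in limma's F test (0 of 79, against 0% of all genes), and 1 did at an unadjusted p under 0.05, against 9.9% of all genes. With each lake set against the mean of the others, no ribosomal protein gene passed the adjusted threshold in any of the 4 comparisons. The share of all genes that passed was 0.0389% for Black and 0% for Doe, Long and Round. At an unadjusted p under 0.05, 1 ribosomal protein gene passed in Black (8.99% of all genes did), 2 in Doe (10.2%) and none in Long (7.7%) or Round (8.29%). The median log2 difference from the other lakes over ribosomal proteins was -0.07 for Black, -0.10 for Doe, 0.04 for Long and 0.16 for Round, beside 0.01, -0.08, -0.04 and 0.12 over all genes. With size factors, quantile normalization and rescaling, Round was at 0.02, 0.09 and 0.05, Doe at -0.0071, -0.04 and -0.0096, Long at 0.09, 0.09 and 0.08, and Black at -0.08, -0.11 and -0.10, so Round was highest only as deposited.

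S18, which contacts transfer RNA from the head of the small subunit, had the smallest F test p (Daplx7pEVm015765, adjusted p = 0.467). It had 146, 202, 285 and 294 FPKM in Pale of Black, Doe, Long and Round and 149, 159, 210 and 201 FPKM in Red. Both Black libraries were below all the others, with a log2 difference of -0.58 ± 0.17 (SE) and an adjusted p of 0.435. S18 also had the smallest p among the genes higher in Long and in Round, with log2 differences of 0.39 and 0.38. The next genes in the F test were the low L17 model Daplx7pEVm026865, S25, S21 and L14, with adjusted p of 0.615 to 0.694.

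S25, which some viral RNAs need to bind the ribosome, gave lower values in Doe than in the other lakes (log2 difference -0.36 ± 0.14, SE, adjusted p = 0.473), with 174 and 170 FPKM in Doe and 195 to 240 FPKM elsewhere, so the lakes did not overlap. S21 and the low L17 model were lower in Doe too (-0.37 ± 0.16 and -0.72 ± 0.28, SE, adjusted p of 0.518 and 0.481). For the L17 model, which is near the floor, this rested on Doe Pale, listed at 0.0. Its Doe Red value of 1.13 FPKM was above Black Pale (1.03 FPKM) and Black Red (0.92 FPKM). In Black, L14 and S23, a protein of the decoding centre, had log2 differences of -0.27 and -0.22, and S25, L3 model Daplx7pEVm010407 and S2 model Daplx7pEVm014479 had 0.23, 0.10 and 0.15. In Doe, L3 model Daplx7pEVm009317, S2 model Daplx7pEVm014199 and L28 model Daplx7pEVm015603 had 0.20, 0.06 and 0.05. In Long, the low L17 model and L7 model Daplx7pEVm017248 had 0.48 and 0.32, and L27a, L28 model Daplx7pEVm015603 and L35 had -0.12, -0.12 and -0.08. In Round, S27a and L23 had 0.31 and 0.25, while L18 model Daplx7pEVm063737, L11 model Daplx7pEVm059560 and Daplx7pEVm018942 had -0.49, -0.22 and -0.05. The differences of this kind in Black, Long and Round, S18 in Black apart, had adjusted p of 0.622 or more.

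As deposited, Round Pale was the highest of the 8 libraries for 58 of the 79 ribosomal protein genes, 26 small and 32 large, which is 73.4% beside 18.9% of all genes. This count rested on scaling, and was 31 with size factors, 14 with quantile normalization and 21 with the total rescaled without Daplx7pEVm025448. The 18.9% of all genes is as deposited. As deposited, the lowest library was Black Red for 27 genes (34.2%, beside 17.4% of all genes) and Doe Pale for 23 genes (29.1%, beside 15.3%). The lowest library was not recounted under those scalings, where the Black median of Red minus Pale was 0.12, 0.09 and 0.07. Without Daplx7pEVm025448 in the total, the ribosomal proteins held 5.53% of FPKM in Black Pale and 5.78% in Black Red. Black Red was also the library with the greater depth, and the part of depth in its values was not tested.

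Isoforms were described as shares of the FPKM of their gene. The 87 genes had 422 isoforms, at most 19 in a gene, and 13 genes had 1. Over isoforms with a mean of at least 5 FPKM in genes with several, every Red library was below every Pale library for 6 of 268 ribosomal protein isoforms, beside 1.8% of all isoforms, and above for 12 of 268, beside 1.72%. The widest of these differences was in S27. Isoform t3 of S27 held 33.5%, 52.5%, 33.6% and 52.4% of the gene in Pale and 25.1%, 33.3%, 15.8% and 22.1% in Red. Its own level was 75.5, 115, 88.7 and 155 FPKM in Pale and 44.8, 67.1, 33.8 and 46.5 FPKM in Red, without overlap. Isoform t1, the most abundant, had 121, 83.3, 143 and 113 FPKM in Pale and 109, 105, 157 and 139 FPKM in Red, with overlap. Isoform t3, whose deposited name is that of an uncharacterized protein, was thus lower in Red in each lake, while t1 was lower in Black and higher in the other 3 lakes.

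Isoform t8 of L7 (Daplx7pEVm016268), also named uncharacterized, held 13.2% ± 2.4 of its gene in Pale libraries and 4.3% ± 3.5 in Red libraries (SD over 4 lakes). The other shares that did not overlap differed by smaller amounts. L13a isoform t4 held 25.6% ± 0.8 in Pale and 29.6% ± 1.6 in Red, S17 isoform t1 held 51.1% ± 3.8 and 56.5% ± 1.8, and S16 isoform t1 held 48.0% ± 0.9 and 44.4% ± 1.9. The make-up of S18 varied between libraries. In Black, Doe, Long and Round, isoform t5 held 56.7%, 25.1%, 12.3% and 12.4% of S18 in Pale and 45.1%, 48.5%, 25.9% and 27.9% in Red. Isoform t2 held 33.2%, 49.2%, 58.2% and 60.9% in Pale and 30.6%, 31.9%, 48.0% and 46.8% in Red, so Doe Red lay between the 2 Black values for both isoforms.

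**Figure D5:**
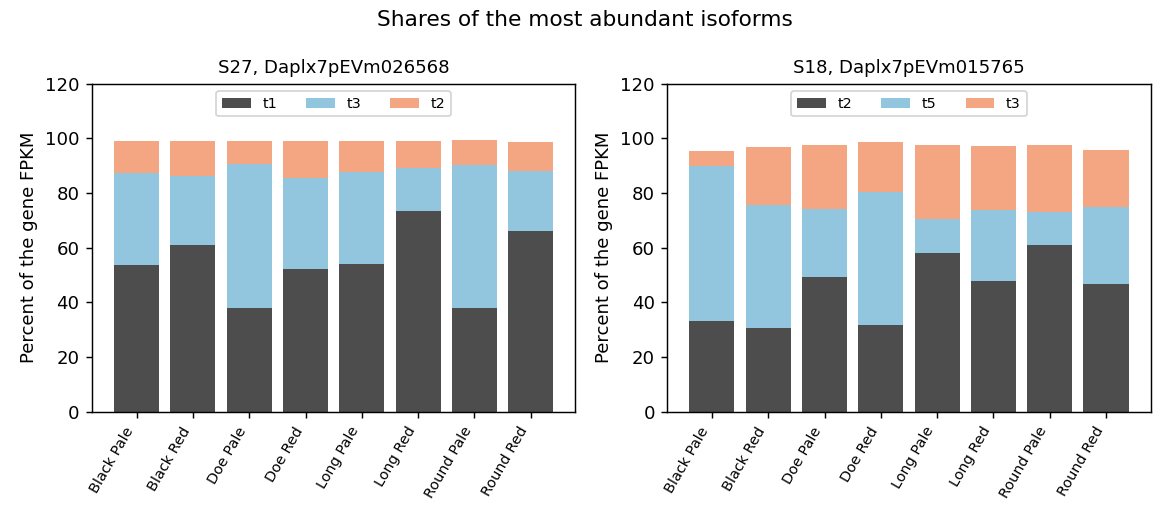
Share of the FPKM of S27 (left) and S18 (right) held by the 3 most abundant isoforms in each library; bars are stacked and the rest of each gene is not drawn. The share of S27 isoform t3 is 33.5% to 52.5% in Pale and 15.8% to 33.3% in Red; the share of S18 isoform t5 is 56.7% and 45.1% in the Black libraries and 48.5% in Doe Red.

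Other genes of protein synthesis were set beside the ribosomal proteins, and no gene of these lists passed the adjusted threshold. Ribosome assembly factors, which build the subunits in the nucleolus, were higher on average in Red for 25 of 37 tested and lower for 12, with a median log2 difference of 0.12 that stayed above 0 under the scalings tried (0.20, 0.21 and 0.21). In Black, Doe, Long and Round the median was -0.11, 0.06, 0.46 and 0.17 for assembly factors and -0.10, 0.02, -0.13 and -0.23 for ribosomal proteins. The assembly factor BRX1 had 9.06 ± 0.75 FPKM in Pale and 12.5 ± 2.0 in Red, and Nop5 had 19.5 ± 2.6 and 26.5 ± 2.3, both higher in 4 of 4 lakes with adjusted p of 0.362 and 0.365. The difference between assembly factors and ribosomal proteins was not tested.

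Cytosolic initiation factors had a median of -0.08 (35 of 54 lower), elongation and release factors -0.09 (7 of 11 lower) and aminoacyl-tRNA synthetases -0.13 (15 of 20 lower). By name, the elongation list also held elongation factor 2 kinase, and the initiation list also held a 4E-binding protein counted under nutrient signalling. The share of all genes that were lower was 61.5%. With size factors these medians were 0.0066, 0.0023 and -0.04, with quantile normalization 0.07, 0.10 and 0.05, and with rescaling 0.02, 0.02 and -0.03. Elongation factor 1-alpha, which brings transfer RNA to the ribosome, was lower in Red in 4 of 4 lakes as deposited. It had 1040 ± 104 FPKM in Pale and 874 ± 56.1 FPKM in Red, with an adjusted p of 0.486. A 4E family member 2 gene, which binds the messenger RNA cap, had 3.92 ± 2.43 FPKM in Pale and 6.52 ± 3.10 FPKM in Red, higher in 4 of 4 lakes. Subunits of RNA polymerases I and III had a median of 0.01 (10 of 19 higher). Nutrient signalling genes, matched by name, had -0.15 (7 of 8 lower), and -0.08, -0.04 and -0.07 with size factors, quantile normalization and rescaling. By name they included ribosomal protein S6 kinase alpha-2. Also among them was a 4E-binding protein with 57.3 ± 15.8 FPKM in Pale and 47.2 ± 7.4 FPKM in Red. Mitochondrial ribosomal proteins had 0.04 (44 of 76 higher), beside -0.11 for the cytosolic ones as deposited. With size factors, quantile normalization and rescaling the mitochondrial median was 0.10, 0.13 and 0.12, and the cytosolic median -0.01, -0.0060 and 0.0020. The summed FPKM of the mitochondrial list was higher in Red in 1 of 4 lakes. The difference between the 2 lists was not tested.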

How the data were processed

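The authors deposited FPKM per gene and per isoform for whole adults, 1 library per lake and phenotype. Per the labels' protocols, total RNA was depleted of ribosomal RNA and made into directional libraries. Reads were trimmed with Trimmomatic, per the submitters' processing notes. The aligner, the quantifier and the genome build are not given in the sources used here. The gene identifiers matched 0 of 33069 in the reference gene table, so no sequence or position is given. Genes averaging 1 FPKM or more were tested on log2(FPKM + 1), which understates changes of low genes, with limma 3.58.1 in R 4.3.3 (lake as a block, a trend in the variance, two-sided, Benjamini-Hochberg adjustment over 12865 genes, threshold 0.05). The fit was tested on simulated data. An exact sign-flip test over 4 lakes cannot go below 0.125, and none was run.

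Nothing says that the libraries of a lake came from separate collections, so p-values measure the spread between these libraries. Lakes pair the libraries by label, and the correlation of the deviations of the 2 libraries is -0.02 to 0.49. Genes were named by rule: past the threshold, otherwise the same sign in 4 of 4 lakes, up to 8 per direction by p; for lakes, the 5 smallest F test p and 3 per direction; the highest and lowest levels; and proteins with known roles. Isoforms, extra models and the share within L3 were described after their values were seen. The members and lists were chosen with earlier results of these data known. Relative depth came from the smallest FPKM steps of low genes. Alternatives were the pseudocount, the filter, 3 scalings, the trend, the block, each lake or library left out, and the top isoform.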

Additional observations from a re-analysis of the deposited data

Results flagged for a closer look

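The named genes and both subunit sums were examined for a library far from the other 3 of its phenotype, by the gap to the nearest library over the range. Of 88 groups of 4 libraries, 3 had such a library, and chance alone would give about 4.4. S2 model Daplx7pEVm014479 had 76.5 FPKM in Long Pale, and 109 to 114 FPKM in the other Pale libraries. The low L17 model Daplx7pEVm026865 was listed at 0.0 in Doe Pale and had 1.03 to 1.13 FPKM in the other Pale libraries. L27a had 167 FPKM in Round Pale, and 136 to 140 FPKM in the other Pale libraries.

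As deposited, Doe went the other way from Black, Long and Round in the sums of both subunits. Red divided by Pale gave 1.02 in Doe for the small subunit and 1.03 for the large subunit, and under 1 in the other lakes. With 1 library per lake and phenotype, this difference was not tested. With Daplx7pEVm025448 left out of the total, Black also went up, from 2.32% to 2.43% for the small and from 3.21% to 3.35% for the large subunit.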

How the results depend on the processing

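No ribosomal protein gene passed the adjusted threshold for phenotype or lake under any alternative run, the fit with no replicate block included (0 calls there). The medians and ratios of the small subunit stayed below 0 and 1 but came close to them: with size factors, quantile normalization and rescaling the median went from -0.12 to -0.02, -0.0037 and -0.0092, and the ratio from 0.925 to 0.987, 0.972 and 0.997. The large subunit median was above 0 with size factors (0.0070) and with the total rescaled without Daplx7pEVm025448 (0.022), where the ratio of the sums was 1.01. In the latter the change follows from the total used. With each lake left out in turn, the small subunit median was -0.15 to -0.07 and that of the large subunit -0.12 to -0.04. The S27 log2 difference reversed to 0.16 (adjusted p = 0.749) when the gene was replaced by its most abundant isoform, and ranged from -0.37 to 0.16 with adjusted p of 0.319 to 0.749 over its alternatives. The other 10 genes named for a like sign in 4 lakes kept their direction, with values as near to 0 as -0.07 for S14, -0.14 for L24 and -0.17 for L3 model Daplx7pEVm010407. An alternative without non-structural members could not be run, since no member has such a name. One of genes at 10 FPKM or more was chosen after seeing the data and changed no call or direction. With 4 lakes, 1 library each and unknown depth, differences of the size of the replicate spread were not detectable.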
